A study of Mus musculus with 18 samples.

Results

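Inflammatory signals such as IL-1β switch on kinase cascades and the transcription of cytokine genes, and cells hold these outputs down with 2 kinds of feedback. The MAP kinase phosphatases, encoded by Dusp genes, remove phosphate from MAP kinases, and several are themselves transcribed when those kinases are active. Proteins of the Zfp36 family bind AU-rich elements in the 3′ untranslated regions of messenger RNAs and bring the machinery that shortens poly(A) tails, while Zc3h12a encodes Regnase-1, an endonuclease that cuts stem-loops in inflammatory messenger RNAs. The values below are those of 10 such genes in mouse liver, namely Dusp1, Dusp4, Dusp5, Dusp6, Dusp10, Dusp16, Zfp36, Zfp36l1, Zfp36l2 and Zc3h12a. They were taken by symbol, and all 10 were present in each gene table, among 18108 genes with the Pico kit, 18051 with V4 and 19424 with TruSeq.

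The animals were male C57/B6J mice, 12 weeks old and with no genetic change given in the labels. The 3 IL-1β mice (named I9579, I9582 and I9583 here) received 20 μg/kg IL-1β by intraperitoneal injection, and the 3 control mice (U9574, U9575 and U9576) received saline. Livers were perfused and taken 4 h later. RNA of each mouse was prepared with all 3 kits, which gave 18 libraries. Pico is a stranded total RNA kit with ribosomal depletion, V4 an unstranded poly(A) kit and TruSeq a stranded poly(A) kit, with inputs of 1.7 to 2.6 ng, 0.8 to 1.3 ng and 200 ng of RNA. The counts of a library summed to between 4024632 and 4134070 for Pico, 12013453 and 12352473 for V4, and 12348864 and 12858237 for TruSeq. Reads were 150 bp with Pico and V4 and 125 bp with TruSeq. The kits were sequenced as separate libraries with different amounts of input. Per the study's methods, TruSeq was run on another sequencer model than Pico and V4, and PCR cycles differed by kit. The study credits the TruSeq libraries to earlier work. The kit and these conditions cannot be told apart. In a whole liver, fewer cells of a type and less RNA per cell cannot be told apart either. The 6 hepatocyte markers were present in all libraries, at a summed 39400 to 110000 CPM (counts scaled to a common library total).

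The genes were not chosen by sequence. The AU-rich heptamer TATTTAT, the core of sites that Zfp36 proteins bind, was looked for in the longest annotated 3′ untranslated region of each. Dusp1, Zfp36, Zfp36l1 and Zfp36l2 held 3 copies each, and the other 6 genes held none. Among 13717 genes of all 3 tables with such a region, 27.3% held at least 1 copy and 3.27% held at least 3. Among the 7065 of these genes with regions of 600 to 2600 bases, which is about the span of the 10 genes, the shares were 29.1% and 2.36%. The carriers are an immediate early phosphatase and the 3 decay factors whose proteins recognise this kind of element. The sites of Dusp1 and Zfp36, which rose in all 3 kits, and the first site of each paralog of Zfp36 follow, from 5′ to 3′ in the gene's own direction, with the heptamer in capitals (genome build mm9, minus strand in all 4 genes).
Dusp1, chr17:26643104-26643132: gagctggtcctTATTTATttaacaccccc
Dusp1, chr17:26642815-26642843: gtttttaccttTATTTATttttgtgtagg
Dusp1, chr17:26642619-26642647: gtatgtttgttTATTTATgatctgaagta
Zfp36, chr7:29161985-29162013: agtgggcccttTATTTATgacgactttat
Zfp36, chr7:29161970-29161998: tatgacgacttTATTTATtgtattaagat
Zfp36, chr7:29161945-29161973: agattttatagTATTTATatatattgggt
Zfp36l1, chr12:81209409-81209437: ttatcaaaacgTATTTATtgccaaactat
Zfp36l2, chr17:84584254-84584282: actatttaactTATTTATtatcttgtgaa

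**Figure D1:**
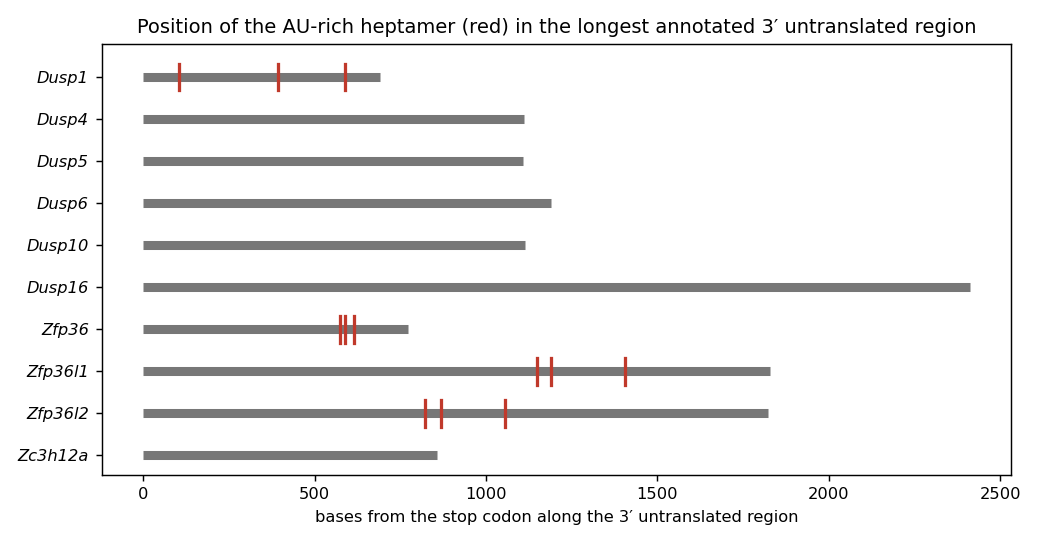
Position of the AU-rich heptamer along the longest annotated 3′ untranslated region of each gene. The horizontal axis is the number of bases from the stop codon, grey bars are the regions and red ticks the copies. The 3 copies of Zfp36 start within bases 575 to 615 of a region of 774 bases, while those of Dusp1 start at bases 104, 393 and 589 of 690.

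The promoters were read from RefSeq (build GRCm38.p6, 250 bases before to 50 after the start), where 8 of the 10 genes matched. Dusp4 and Zfp36l2 did not. The cyclic AMP response element TGACGTCA was found in 1 of the 8, Dusp1, 143 bases before the start, and in 1.79% of all 32851 promoters. The AP-1 letters TGACTCA or TGAGTCA, on either strand, were in none of the 8 and in 5.2% of all promoters, and the 2 NF-kappaB decamers searched, also on either strand, were in none of the 8 and in 0.244%. The Dusp1 promoter is shown because it alone held a searched motif, which is in capitals (chr17:26508423-26508722, minus strand).
Dusp1 promoter: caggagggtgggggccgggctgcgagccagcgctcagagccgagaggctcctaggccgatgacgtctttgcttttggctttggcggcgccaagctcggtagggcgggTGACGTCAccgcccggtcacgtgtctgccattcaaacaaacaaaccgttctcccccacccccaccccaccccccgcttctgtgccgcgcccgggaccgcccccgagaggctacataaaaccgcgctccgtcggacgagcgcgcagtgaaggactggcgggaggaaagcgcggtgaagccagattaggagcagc

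After IL-1β, 3 of the 10 genes rose and 1 fell, and these were the same genes in Pico, V4 and TruSeq: Dusp1, Zfp36 and Zc3h12a were higher and Dusp6 was lower. A gene was called at an adjusted p of at most 0.05 by limma-voom, adjusted over all genes of the kit. By that rule 17.6% of all genes were called in Pico (6.78% higher and 10.8% lower), 11% in V4 (3.6% higher and 7.41% lower) and 34.1% in TruSeq (12.3% higher and 21.8% lower), against 4 of the 10 genes in each kit. In TruSeq the share of the 10 genes was therefore near the background. In Pico, V4 and TruSeq, the median log2 fold change of the 10 genes was 0.192, 0.238 and 0.23, while that of all genes was -0.116, -0.224 and -0.172. With TMM scaling the median of all genes was 0.0159, -0.0562 and -0.0146, so log2 fold changes with library totals sit lower by 0.1 or more in each kit, and none of the 12 calls changed direction. With TMM factors the shares of all genes called higher and lower were 9.16% and 8.16% (Pico), 4.79% and 4.84% (V4) and 16.7% and 16.1% (TruSeq).

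**Figure D2:**
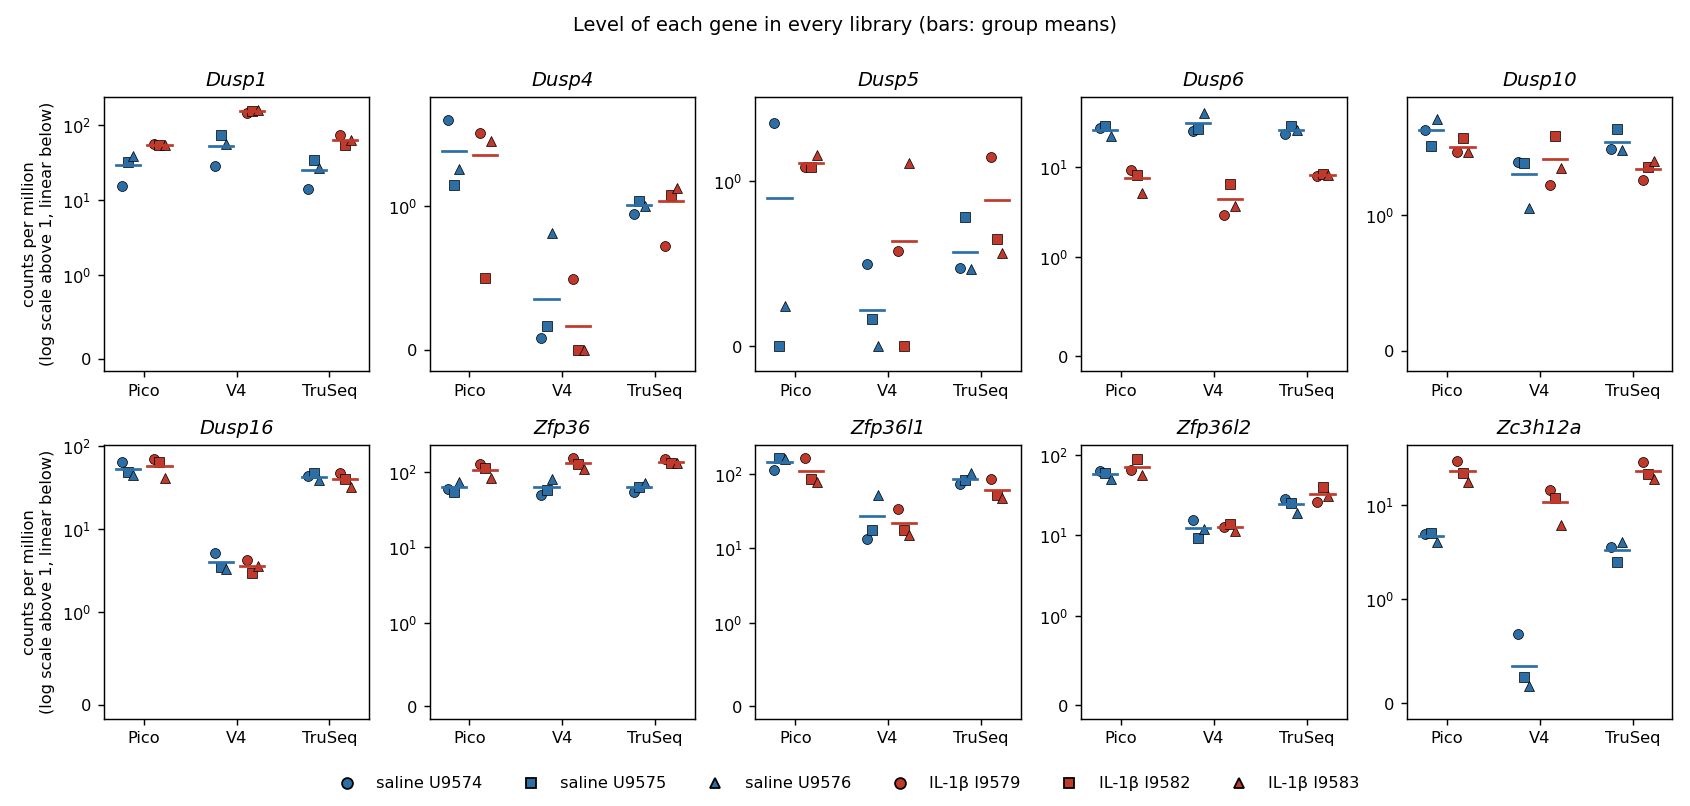
CPM (counts scaled to a common library total) of each gene (vertical axis, logarithmic above 1 and linear below) in the 18 libraries, by kit. Points are mice, red for IL-1β and blue for saline, and horizontal bars are group means. The red and blue points of Dusp1, Dusp6, Zfp36 and Zc3h12a do not overlap in any kit, while those of Dusp4, Dusp5 and Dusp16 overlap in all 3.

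Among the phosphatases, Dusp1 is an immediate early gene whose nuclear product acts on p38, JNK and ERK kinases (ENSMUSG00000024190, chr17:26642535-26645464, mm9). In TruSeq it had 888, 654 and 774 counts in IL-1β mice I9579, I9582 and I9583, and 176, 428 and 342 in saline mice U9574, U9575 and U9576. In V4 the counts were 1716, 1828 and 1854 against 337, 875 and 691, and in Pico 222, 213 and 213 against 63, 131 and 159. The IL-1β libraries were all above the saline libraries in each kit, as were those of 14.5% of genes in TruSeq, 8.71% in V4 and 11% in Pico, and saline mouse U9574 was the lowest library of Dusp1 every time. The log2 fold change was 1.42 ± 0.26 in TruSeq (SE, n = 3 against 3, limma-voom adjusted p = 0.00258), 1.62 ± 0.27 in V4 (adjusted p = 0.00409) and 1.0 ± 0.25 in Pico (adjusted p = 0.00975), which is 2.67-fold in TruSeq and 3.06-fold in V4. The Pico call was lost without any 1 of the 3 IL-1β mice (adjusted p up to 0.0912), without saline mouse U9574 (0.0514, with the log2 fold change at 0.61) and in a single fit of all 18 libraries (0.131). The calls of V4 and TruSeq held in all 11 alternatives of each.

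Dusp6 moved the other way. It encodes a cytoplasmic phosphatase with a preference for ERK, and its transcription is widely used as a readout of ERK activity (ENSMUSG00000019960, chr10:98725865-98730122). TruSeq counts were 100, 104 and 101 after IL-1β and 299, 369 and 333 after saline. V4 counts were 36, 79 and 44 against 303, 325 and 500, and Pico counts 38, 33 and 21 against 113, 119 and 92. All 3 IL-1β libraries were below all saline libraries in each kit, as were those of 29.3% of genes in TruSeq, 18.2% in V4 and 19.2% in Pico, and in TruSeq the IL-1β mice differed by only 4 counts. On the log2 scale the change was -1.66 ± 0.13 in TruSeq (adjusted p = 2.39e-05), -2.86 ± 0.40 in V4 (adjusted p = 0.00148) and -1.81 ± 0.31 in Pico (adjusted p = 0.000541), so the level was 3.16-fold, 7.24-fold and 3.50-fold lower. The call held in 11 of 11 alternatives in each kit.

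The other 4 phosphatase genes did not pass the test in any kit. Dusp10, whose product acts on p38 and JNK (ENSMUSG00000039384, chr1:185837181-185899515), came nearest in TruSeq, with 24, 30 and 34 counts after IL-1β and 43, 64 and 43 after saline. These groups did not overlap, as in this direction for 29.3% of genes, and the log2 fold change was -0.70 ± 0.25 (adjusted p = 0.0536). With only genes of at least 10 counts in 3 libraries the adjusted p was 0.0365. In the other 10 of the 11 alternatives Dusp10 was not called in TruSeq, with an adjusted p of up to 0.194. In V4 the counts were 21, 53 and 29 against 32, 32 and 14, and in Pico 13, 17 and 13 against 20, 15 and 25, with overlapping groups in both and log2 fold changes of 0.39 ± 0.59 and -0.42 ± 0.46. Dusp10 overlaps 1700056E22Rik on the opposite strand but shares no exonic base with it.

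Dusp16 encodes another phosphatase of JNK and p38 (ENSMUSG00000030203, chr6:134665488-134742643). TruSeq counts were 594, 491 and 404 after IL-1β and 547, 600 and 501 after saline, and Pico counts were 281, 256 and 168 against 265, 202 and 185. Its log2 fold change was -0.12 in TruSeq (95% interval -0.44 to 0.21) and 0.12 in Pico (-0.31 to 0.56), so in these kits the interval left out a change of 2-fold either way. V4 gave only 52, 36 and 44 counts against 62, 43 and 41, with a log2 fold change of -0.13 (-1.06 to 0.81).

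Dusp4 and Dusp5, which encode nuclear phosphatases of ERK, had few counts, at most 19 in any library. Dusp4 (ENSMUSG00000031530, chr8:35870351-35882948) had 9, 15 and 17 counts after IL-1β in TruSeq and 12, 14 and 13 after saline, 15, 2 and 13 against 19, 6 and 8 in Pico, and 6, 0 and 0 against 1, 2 and 10 in V4. Dusp5 (ENSMUSG00000034765, chr19:53603599-53616921) had 18, 8 and 7 against 6, 10 and 6 in TruSeq, 5, 5 and 6 against 10, 0 and 1 in Pico, and 7, 0 and 16 against 6, 2 and 0 in V4. Groups overlapped for both genes in every kit. The narrowest 95% intervals were those of TruSeq, -0.68 to 0.81 for Dusp4 and -0.50 to 1.53 for Dusp5, and that of Dusp5 includes a 2-fold rise.

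Among the decay factors, Zfp36 encodes tristetraprolin, the family member best known as an inducible brake on cytokine messenger RNAs (ENSMUSG00000044786, chr7:29161803-29164274). Its TruSeq counts were 1859, 1645 and 1653 after IL-1β and 695, 807 and 926 after saline. V4 gave 1885, 1573 and 1308 against 604, 698 and 996, and Pico 515, 455 and 336 against 243, 223 and 307. Groups did not overlap in any kit, as in this direction for 14.5% of genes in TruSeq, 8.71% in V4 and 11% in Pico. Mouse I9579 was the highest of the IL-1β mice and mouse U9576 the highest of the saline mice in all 3 kits. The change on the log2 scale was 1.14 ± 0.12 in TruSeq (adjusted p = 9.14e-05), 1.07 ± 0.21 in V4 (adjusted p = 0.0095) and 0.77 ± 0.18 in Pico (adjusted p = 0.00572), or 2.20-fold, 2.11-fold and 1.71-fold. The Pico call was lost without IL-1β mouse I9579 (adjusted p = 0.0655) or I9582 (0.0784) and without saline mouse U9574 (0.0625) or U9575 (0.054), and the V4 call without saline mouse U9574 (0.0506) or U9575 (0.0606).

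The paralogs of Zfp36 did not pass the test in any kit. Zfp36l1 (ENSMUSG00000021127, chr12:81208747-81214000) had 1044, 646 and 589 counts after IL-1β in TruSeq and 930, 1051 and 1294 after saline, 656, 337 and 311 against 463, 670 and 642 in Pico, and 404, 211 and 184 against 161, 212 and 636 in V4. Mouse I9579 was far above the other IL-1β mice in every kit, and it alone made the groups overlap in TruSeq and Pico. With it, the log2 fold change was -0.51 ± 0.20 in TruSeq (adjusted p = 0.0799), -0.48 ± 0.22 in Pico (adjusted p = 0.149) and -0.15 ± 0.47 in V4 (adjusted p = 0.865). Without it, Zfp36l1 was called lower in TruSeq (log2 fold change -0.76, adjusted p = 0.0115) and in Pico (-0.82, adjusted p = 0.023). Gm17591, a long noncoding RNA that overlaps 1672 exonic bases of Zfp36l1 on the other strand, had at most 1 count in any library.

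Zfp36l2 (ENSMUSG00000045817, chr17:84583271-84587287) had 317, 490 and 383 counts after IL-1β in TruSeq and 361, 325 and 245 after saline, 259, 357 and 228 against 258, 246 and 204 in Pico, and 156, 168 and 136 against 184, 111 and 149 in V4. The groups overlapped in each kit, and mouse I9582 was the highest IL-1β mouse each time. Log2 fold changes of Zfp36l2 were 0.39 ± 0.19 in TruSeq (adjusted p = 0.149), 0.26 ± 0.18 in Pico (adjusted p = 0.394) and 0.08 ± 0.29 in V4 (adjusted p = 0.885). In TruSeq the call depended on the scaling, with an adjusted p of 0.0442 with TMM factors in voom, 0.0319 with edgeR and 0.019 with DESeq2.

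Zc3h12a showed the largest change of the 10 genes in every kit (ENSMUSG00000042677, chr4:124795667-124805084). TruSeq counts were 364, 270 and 238 after IL-1β and 45, 32 and 52 after saline. Pico counts were 120, 90 and 72 against 20, 21 and 17, and V4 counts 178, 145 and 74 against 8, 3 and 2. Every IL-1β library was above every saline library, as for 14.5% of genes in TruSeq, 11% in Pico and 8.71% in V4. An order of the IL-1β mice that held in all kits was seen in 9.15% of the 8960 genes that averaged 20 counts or more in each. For Zc3h12a the order was I9579, I9582, I9583 in each kit. Its log2 fold change was 2.79 ± 0.25 in TruSeq (adjusted p = 4.14e-05), 2.25 ± 0.37 in Pico (adjusted p = 0.000394) and 4.90 ± 0.85 in V4 (adjusted p = 0.00455), and the call held in 11 of 11 alternatives in each kit. As a ratio of summed counts, corrected for library totals, the level was 6.97-fold higher in TruSeq (exact 95% interval 5.78 to 8.45), 4.95-fold in Pico (3.72 to 6.69) and 30.7-fold in V4 (17.7 to 58.1). These intervals cover counting error only, and the V4 ratio rests on 13 saline counts in all.

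**Figure D3:**
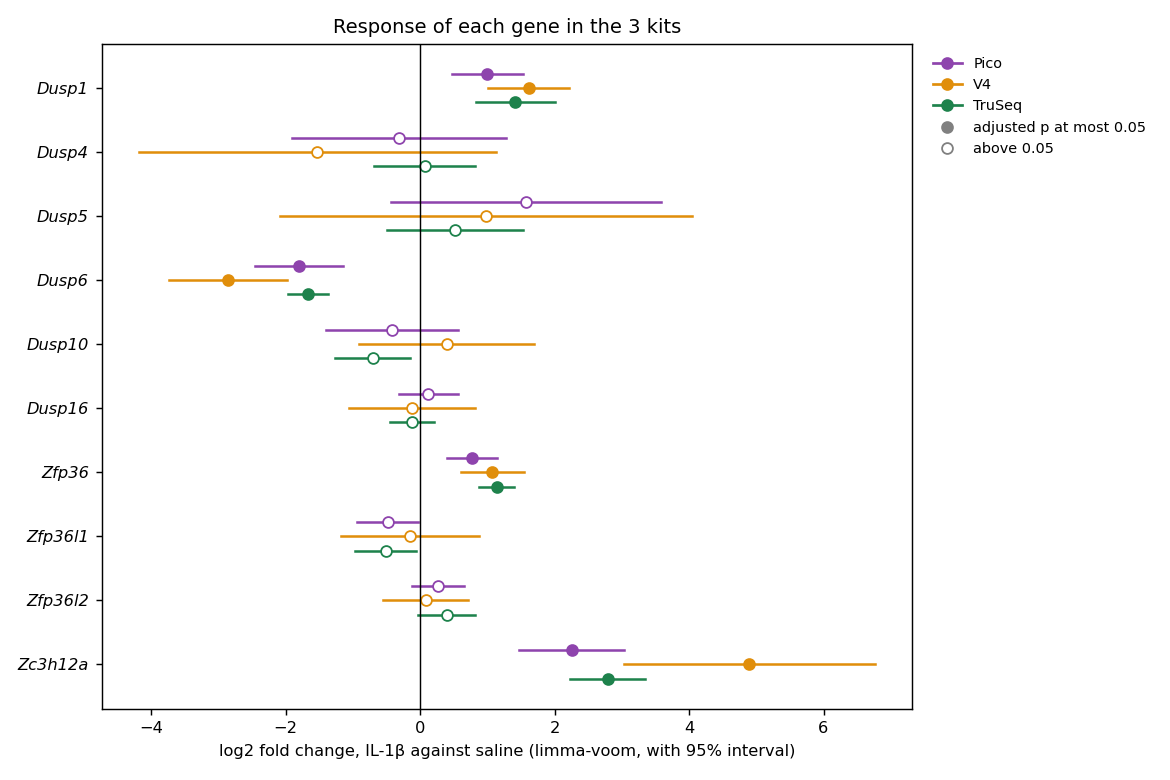
The log2 fold change of each gene, IL-1β against saline, with its 95% interval from limma-voom, in 3 colours for the 3 kits. Filled points passed the adjusted p of 0.05. Dusp1, Zfp36 and Zc3h12a lie to the right of 0 and Dusp6 to the left in all kits, and the intervals of Dusp4 and Dusp5 in V4 are the widest.

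A kit by treatment interaction tested whether a response depended on the kit. None of the 10 genes passed for any pair of kits by limma-voom, and neither did any other gene (0% called, of 17207 genes in the Pico and TruSeq pair, 17147 in the V4 and TruSeq pair and 16395 in the pair of low-input kits). At an unadjusted p under 0.05 there were 945, 1090 and 900 genes. Over all genes edgeR called 0 in each pair and DESeq2 called 4, 72 and 17, none of them 1 of the 10 genes. The largest differences were those of Zc3h12a, whose log2 fold change was higher in V4 than in TruSeq by 2.11 (95% interval 0.43 to 3.79, adjusted p = 0.607) and lower in Pico than in V4 (difference -2.64, interval -4.55 to -0.74, adjusted p = 0.719). The other difference of the 10 genes whose interval left out 0 was that of Dusp6, at -1.20 between V4 and TruSeq (-2.07 to -0.32, adjusted p = 0.541). Dusp4 had a larger value for the same pair, -1.60, with a much wider interval (-4.21 to 1.02). For Zfp36 the difference between V4 and TruSeq was -0.06 (-0.60 to 0.47), and for Dusp1 it was 0.20 (-0.72 to 1.12).

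Levels were compared between genes per length, as CPM per kilobase of exon. After saline, Zfp36 and Zfp36l1 led in TruSeq, at 35.3 ± 4.77 and 28.6 ± 4.65 (SD, n = 3), ahead of Dusp6 at 9.34 ± 0.933 and Dusp1 at 9.14 ± 3.68. The ranges of the first pair overlapped, as did those of the second. After IL-1β, Zfp36 was at 77.4 ± 5.29, above every other gene, followed by Dusp1 at 23.1 ± 3.43 and Zfp36l1 at 20.5 ± 6.66, whose ranges overlapped. Zfp36l2 at 9.07 ± 2.03 and Zc3h12a at 8.14 ± 1.82 overlapped with each other and lay below these, and Dusp16 at 5.23 ± 0.997 lay below the range of both. Dusp6 at 2.93 ± 0.0694 was lower again and above Dusp10 at 0.778 ± 0.134, and Dusp4 and Dusp5 were at 0.403 ± 0.123 and 0.359 ± 0.197. In Pico after IL-1β the top level was again that of Zfp36, at 60.2 ± 12.6, above Zfp36l1 within each library. These levels use all annotated exon bases of a gene. With the longest transcript instead, Dusp16 after IL-1β was at 7.85 ± 1.49 in TruSeq, where its range then overlapped with those of Zc3h12a and Zfp36l2, and at 11.4 ± 2.88 in Pico, with a mean above that of Zc3h12a (8.45 ± 2.17).

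The makeup of each family differed between treatments. Of the summed level of the 6 phosphatase genes in TruSeq, Dusp1 made up 71.4%, 66.9% and 72.5% in the IL-1β mice and 24.7%, 39.7% and 38.1% in the saline mice, while Dusp6 made up 7.76%, 10.3% and 9.12% against 40.4%, 33.1% and 35.8%. The means of Dusp1 were 60.8% ± 4.56 against 35.1% ± 13.5 in Pico and 94.4% ± 1.16 against 59.0% ± 11 in V4 (SD, n = 3). Those of Dusp6 were 8.19% ± 1.69 against 31.6% ± 5.04 in Pico and 2.66% ± 1.06 against 35.9% ± 9.24 in V4. The 2 treatments did not overlap for either gene in any kit. The shares come from the same counts, which already did not overlap for these genes, so this is no separate result. Within the Zfp36 family, Zfp36 made up 72.5% ± 2.45 after IL-1β and 49.8% ± 1.24 after saline in TruSeq, 52.1% ± 2.42 against 35.2% ± 4.77 in Pico and 87.2% ± 1.51 against 74.6% ± 5.48 in V4. Here too the treatments did not overlap, as the counts of Zfp36 already did not. The shares use all annotated exon bases, and no background over all genes was drawn up for them. With 3 mice a side an exact permutation test could give no p below 0.10, so none was run on the shares.

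**Figure D4:**
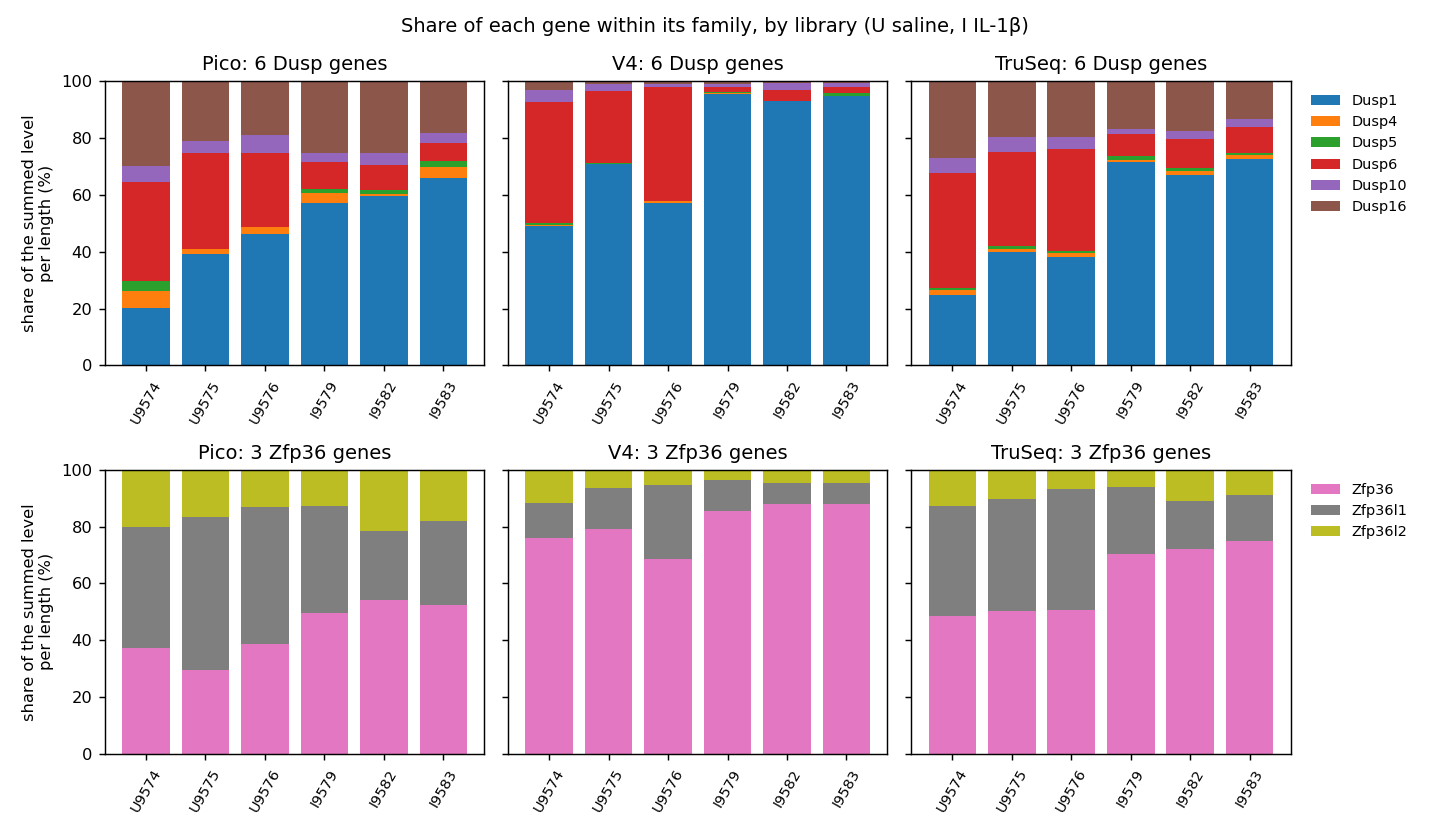
Share of each gene in the summed level per length of its family, as stacked bars from 0 to 100%, for the 6 Dusp genes (upper row) and the 3 Zfp36 genes (lower row) in each library. In TruSeq, the Dusp1 share is 66.9% to 72.5% in the IL-1β mice (I) and 24.7% to 39.7% in the saline mice (U).

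The same RNA gave different levels for several of these genes by kit. Across the 6 mice, the log2 ratio of the CPM in V4 to that in TruSeq was -3.42 ± 0.278 for Dusp16 (SD, n = 6), -1.70 ± 0.552 for Zfp36l1, -0.06 ± 0.16 for Zfp36 and 1.16 ± 0.206 for Dusp1, against a median of -0.462 over the 8960 genes that averaged 20 counts or more in all kits. Only 1.1% of those genes had a lower ratio than Dusp16, and 91.8% had a lower ratio than Dusp1. Between Pico and TruSeq the ratio was 1.19 ± 0.178 for Zfp36l2, above that of 94.1% of genes, 0.762 ± 0.163 for Zfp36l1 and 0.00 ± 0.322 for Dusp1, with a median of 0.0168. The tables were normalized separately, so these ratios describe the tables and were not tested.

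Mice of 1 treatment could be followed across kits. Of the 7 genes that averaged 20 counts or more in all kits, 5 had their highest IL-1β library in the same mouse in all 3 kits, as did 21.8% of the 8960 genes. Mouse I9579 was highest for Zfp36, Zfp36l1, Zc3h12a and Dusp16, and mouse I9582 for Zfp36l2. The lowest IL-1β mouse was shared for 2 of the 7 (Zfp36l1 and Zc3h12a, mouse I9583), beside 24.6% of all genes. Among saline mice the highest was shared for 2 of 7 (24.8% of genes) and the lowest for 3 of 7 (22.5%).

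Markers of other cells moved with the treatment. For the counts below, 12.3%, 3.6% and 6.78% of all genes were called higher in TruSeq, V4 and Pico, and 21.8%, 7.41% and 10.8% lower. The summed level of neutrophil markers was 47.6 to 92.8 CPM after IL-1β and 3.36 to 6.16 after saline in TruSeq, where 6 of 8 rose, and 5 of 7 measured rose in V4 and 6 of 6 in Pico. Camp and Ly6g had no count in any saline library that measured them. The sum was highest in IL-1β mouse I9582 and lowest in I9579 in every kit. Zfp36l2 was also highest in I9582 in every kit, and Zfp36, Zfp36l1, Zc3h12a and Dusp16 were highest in I9579. Kupffer cell and macrophage markers summed to 67.3 to 97.7 CPM after IL-1β and 136 to 229 after saline in TruSeq, where 5 of 8 fell and Marco rose, and 2 of 8 fell in V4 and 4 of 8 in Pico. Hepatocyte markers fell in 4 of 6, 4 of 6 and 6 of 6 in TruSeq, V4 and Pico. Of endothelial markers, 1 rose and 3 fell of 6 in TruSeq, 0 rose and 1 fell in V4, and 2 rose and 2 fell in Pico. Stellate cell markers fell in 3, 1 and 2 of 5 in TruSeq, V4 and Pico with none higher, cholangiocyte markers rose in 2, 0 and 1 of 4 with none lower, and lymphocyte markers fell in 2 of 6 in TruSeq, with no call in V4 or Pico. The part of these markers in the results for any of the 10 genes was not tested.

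The list of MAP kinases holds those that the phosphatases act on and also atypical ones such as Mapk6. Of its 11 measured genes, 1 rose and 2 fell in TruSeq and in Pico, and none was called in V4. Beside this, 34.1%, 17.6% and 11% of all genes were called in TruSeq, Pico and V4. Mapk6, an atypical MAP kinase, rose with log2 fold changes of 0.82 ± 0.15 in TruSeq and 0.78 ± 0.16 in Pico (adjusted p = 0.0026 and 0.00267). In V4 its value was 1.06 ± 0.33 (adjusted p = 0.067), which passed with TMM factors (0.0413), edgeR (0.0175), DESeq2 (0.00773), the count filter (0.0453) and 1 fit of 18 libraries (0.00478). Mapk3, which encodes an ERK, fell by 0.70 and 0.98 on the log2 scale in the same kits (adjusted p = 0.00286 and 0.0156), the Pico call being lost without any 1 of I9579, I9582 and I9583 (up to 0.067). Mapk9, which encodes a JNK, fell by 0.69 in TruSeq (adjusted p = 0.00323) and by 0.55 in Pico (adjusted p = 0.0466), the latter lost with TMM factors (0.128), in 1 fit of 18 libraries (0.181) and without any 1 of the 6 mice (0.0535 to 0.192). The median log2 fold change of the list was -0.349 in TruSeq, -0.131 in V4 and -0.282 in Pico.

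Upstream, 6 of 20 MAP kinase kinases and their activators rose and 3 fell in TruSeq, with 0 and 2 of 19 in V4 and 1 and 1 of 19 in Pico. For these counts and those of the downstream kinases, the background was 12.3% of all genes higher and 21.8% lower in TruSeq. It was 3.6% and 7.41% in V4, and 6.78% and 10.8% in Pico. Those that rose in TruSeq were Map2k4, Map2k7, Map3k3, Map3k6, Map3k11 and Map3k14, and those that fell were Map2k5, Map2k6 and Map3k4, while Map2k5 and Map2k6 were called lower in V4. The V4 call of Map2k5 was lost with TMM factors (adjusted p = 0.0999), with edgeR (0.0936) and without any 1 mouse except U9576 (0.0813 to 0.121). Map2k6, an activator of p38, had 4, 8 and 9 counts after IL-1β and 126, 122 and 134 after saline in TruSeq, with log2 fold changes of -4.12 ± 0.31 there, -2.52 ± 0.47 in V4 and -3.89 ± 0.65 in Pico (adjusted p = 1.86e-05, 0.00677 and 0.000464). Map3k6 had 116, 138 and 167 counts against 27, 20 and 25, and rose in TruSeq (2.56 ± 0.24, adjusted p = 5.67e-05) and Pico (2.78 ± 0.41, 0.000137). In V4 it had 43, 14 and 73 counts against 6, 1 and 7 (3.11 ± 0.99, adjusted p = 0.0686), and it passed there with edgeR (0.0117), DESeq2 (0.0016), 1 fit of 18 libraries (0.00199) and without I9582 (0.0353). Downstream, 2 of 10 kinases rose and 2 fell in TruSeq, with 1 each in V4 and Pico, and Rps6ka3 and Rps6ka2 were those called in TruSeq alone. Mapkapk2, the p38 target that phosphorylates tristetraprolin, had 1285, 1451 and 1113 counts against 606, 579 and 545 in TruSeq, with log2 fold changes of 1.19 ± 0.12 in TruSeq, 0.85 ± 0.19 in V4 and 1.0 ± 0.19 in Pico (adjusted p = 8.11e-05, 0.0158 and 0.00119), and its V4 call was lost without any 1 of I9582, I9583, U9574 and U9575 (up to 0.0702). Rps6ka1, an ERK-activated kinase, had 55, 63 and 77 counts against 213, 208 and 241, and the log2 fold changes were -1.72 ± 0.16, -1.95 ± 0.31 and -1.81 ± 0.32 (adjusted p = 5.46e-05, 0.00282 and 0.000782).

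Other feedback genes of the same cascades were set beside Dusp6 and Dusp1. Sprouty and Spred genes encode inhibitors of the route from growth factor receptors to ERK, and of 6 measured, 3 fell in TruSeq, 1 in V4 and 2 in Pico, with none higher. Beside this, 21.8%, 7.41% and 10.8% of all genes were called lower in these kits. Spry4 had 18, 24 and 23 counts after IL-1β and 122, 83 and 93 after saline in TruSeq (log2 fold change -2.12 ± 0.26, adjusted p = 0.000232), and was called lower in Pico (-1.48 ± 0.43, adjusted p = 0.0225), though not without any 1 mouse except U9576 (0.059 to 0.168) nor in 1 fit of 18 libraries (0.0864). Spred2 had 58, 42 and 37 against 127, 126 and 99 (-1.32 ± 0.21, adjusted p = 0.00107), with an adjusted p of 0.0305 in Pico that became 0.0619 with TMM factors and 0.0588 to 0.101 without any 1 of I9579, I9582, I9583 and U9574. In V4 Spry4 and Spred2 were not called (-2.80 ± 0.95 and -1.30 ± 0.76, adjusted p = 0.0856 and 0.339), and Spry4 passed there in 1 fit of 18 libraries (0.00833) and without I9583 (0.0448). Spry1, named after its values were seen, was called in TruSeq (25, 19 and 24 counts against 45, 50 and 48) and in V4, where it had no count in any IL-1β library and 66, 52 and 2 after saline. The median log2 fold change of the list was -1.04 in TruSeq, -1.64 in V4 and -0.737 in Pico.

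Of the other dual specificity phosphatases, 2 of 14 rose and 3 fell in TruSeq, 1 of 12 rose in V4 and 2 of 12 in Pico. This was near the share of all genes called in either direction, 34.1% in TruSeq, 11% in V4 and 17.6% in Pico. Dusp8, a phosphatase of JNK and p38, rose in each kit from a very low level. It had 63, 55 and 43 counts against 2, 6 and 4 in TruSeq, 7, 13 and 18 against 2, 0 and 1 in V4, and 37, 17 and 26 against 3, 3 and 0 in Pico, and the ratio of summed counts was 13.8 (exact 95% interval 7.7 to 27.3), 12.7 (4.04 to 64.4) and 13.6 (5.97 to 38.1). These intervals cover counting error only and leave out the spread between mice. The adjusted p was 0.000146, 0.029 and 0.00168, and in V4 it was 0.0977 with edgeR and 0.0604 to 0.141 without any 1 of I9582, I9583, U9575 and U9576. The other calls were each made in 1 kit, for Dusp23 (higher) and Dusp12, Dusp19 and Dusp28 (lower) in TruSeq and for Dusp11 (higher) in Pico.

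Immediate early transcription factors are the companions of Dusp1 and Zfp36 in the first wave of transcription. Of 13 in TruSeq 6 rose and 1 fell, of 12 in V4 3 rose, and of 13 in Pico 3 rose and 1 fell. The shares of all genes in these kits were 12.3%, 3.6% and 6.78% higher and 21.8%, 7.41% and 10.8% lower. Jun, Junb and Jund rose in all kits, Fosl2, Egr2 and Atf3 were also called higher in TruSeq, and the calls lower were Fosb in TruSeq, at no more than 4 counts in any library, and Ier2 in Pico. Jun had log2 fold changes of 1.43 ± 0.15 in TruSeq, 2.07 ± 0.27 in V4 and 1.57 ± 0.20 in Pico, and Junb 2.06 ± 0.42, 1.97 ± 0.43 and 1.81 ± 0.29, with adjusted p of at most 0.0142 for both genes. Junb was not called in Pico in 1 fit of 18 libraries (0.0644), nor in V4 without any 1 of I9582, U9574 and U9575 (up to 0.0836). In TruSeq Jun had 225, 221 and 183 counts against 80, 73 and 87. The groups of Jun did not overlap in any kit. The same held in this direction for 14.5% of genes in TruSeq, 8.71% in V4 and 11% in Pico.

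**Figure D5:**
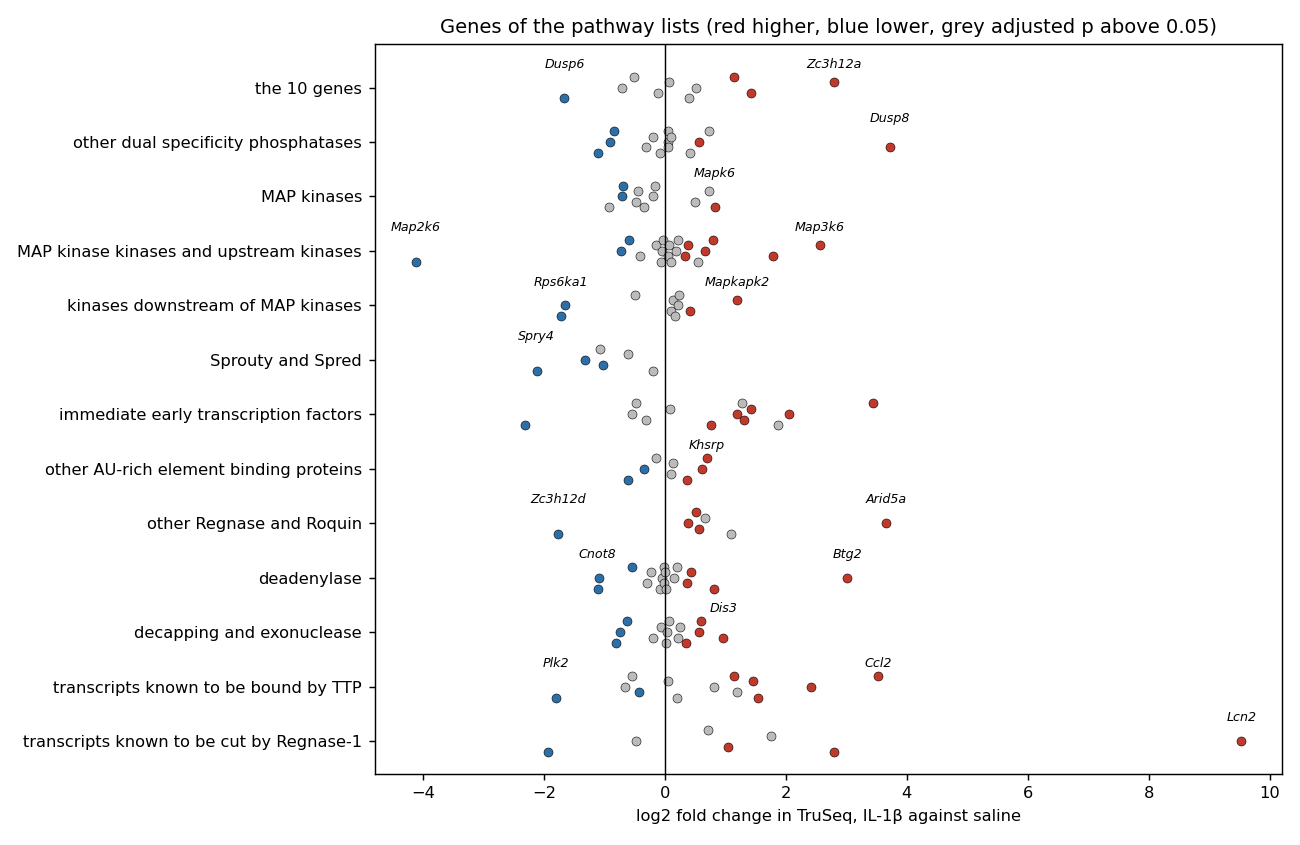
The log2 fold change in TruSeq (horizontal axis) of every measured gene of the 10 genes and of 12 lists of related genes (rows). Red and blue points passed the adjusted p of 0.05 as higher and lower, and grey points did not. Lcn2 lies far to the right at 9.53 and Map2k6 to the left at -4.12, while most genes of the deadenylase and decapping lists lie near 0.

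Genes of the decay machinery that tristetraprolin recruits were called in both directions. Of 17 genes of the deadenylase group, 4 rose and 3 fell in TruSeq, 2 and 1 in V4, and 1 and 2 in Pico, beside the 34.1%, 11% and 17.6% of all genes called. Btg2, which couples deadenylases to RNA-binding proteins, had 1068, 1023 and 914 counts against 157, 123 and 107 in TruSeq, with log2 fold changes of 3.01 ± 0.15 in TruSeq, 2.58 ± 0.24 in V4 and 2.99 ± 0.28 in Pico (adjusted p = 2.05e-06, 0.000106 and 1.29e-06). Cnot8, a catalytic deadenylase subunit, had 225, 212 and 226 counts against 540, 537 and 415, with -1.11 ± 0.14, -1.11 ± 0.22 and -1.08 ± 0.19 (adjusted p = 0.00025, 0.0097 and 0.000672, with 0.0505 in V4 without U9575). The non-catalytic subunit gene Cnot3 rose in TruSeq and V4 (0.82 ± 0.15 and 1.27 ± 0.35, adjusted p = 0.0024 and 0.0391, the latter 0.0538 to 0.131 without any 1 mouse except U9576) and the catalytic Cnot6l fell in TruSeq and Pico (-0.54 ± 0.12 and -0.70 ± 0.17, adjusted p = 0.00632 and 0.0073, the latter 0.0609 without I9582). Of 14 decapping and exonuclease genes 4 rose and 3 fell in TruSeq, none was called in V4, and 1 rose and 1 fell in Pico, among them Dis3 of the exosome, which rose in TruSeq and Pico (0.96 ± 0.14 and 1.11 ± 0.22). The other calls in TruSeq were Cnot4, Pan2, Dcp1a, Edc4 and Exosc10 (higher) and 2310010J17Rik, Edc3, Pnrc2 and Mov10 (lower), and in Pico Upf1 (lower). Of 8 other AU-rich element binding proteins 3 rose and 2 fell in TruSeq, none was called in V4 and 1 rose in Pico. In TruSeq they were Khsrp, Elavl1 and Pcbp1 (higher) and Hnrnpd and Tia1 (lower). Khsrp, which also promotes decay, rose in TruSeq and Pico (0.70 ± 0.12 and 0.54 ± 0.16, adjusted p = 0.0016 and 0.0238), and its Pico call was lost without any 1 of I9579, I9583, U9574 and U9576 (up to 0.106).

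Regnase-1 shares targets with the Roquin proteins. Of the other Regnase and Roquin genes with their partner Arid5a, 4 of 7 rose and 1 fell in TruSeq, 1 of 7 rose in V4, and 3 of 6 rose and 1 fell in Pico. All genes were called higher at 12.3%, 3.6% and 6.78% and lower at 21.8%, 7.41% and 10.8% in these kits. Arid5a, a protein that protects such transcripts from Regnase-1, had 367, 249 and 196 counts against 22, 15 and 28 in TruSeq, with log2 fold changes of 3.65 ± 0.37, 3.55 ± 0.57 and 3.54 ± 0.50 in TruSeq, V4 and Pico (adjusted p = 9.03e-05, 0.00313 and 0.000101). Its IL-1β libraries stood in the order I9579, I9582, I9583 in each kit, the order seen for Zc3h12a. Rc3h1, which encodes Roquin-1, rose in TruSeq and Pico (0.57 ± 0.16 and 0.65 ± 0.14, adjusted p = 0.0202 and 0.00445). Its TruSeq call was lost without any 1 mouse except I9583 (0.0567 to 0.0973) and its Pico call without I9582 (0.0579). Zc3h12d, a paralog of Zc3h12a, was called lower in the same kits (-1.77 ± 0.36 and -3.00 ± 0.87, adjusted p = 0.00414 and 0.0235). In 1 fit of 18 libraries both calls were lost (0.138 and 0.054) while V4 passed (0.0217), and V4 also passed without I9582 (0.0233). The Pico call was lost with DESeq2 (0.0542) and without any 1 of I9582, I9583, U9574 and U9576 (0.0829 to 0.222). N4bp1 rose in TruSeq and Pico and Rc3h2 in TruSeq.

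Transcripts known to be bound or cut by these proteins moved in both directions. Of 13 known to be bound by tristetraprolin, a list that holds Zfp36 itself, 5 rose and 2 fell in TruSeq, 3 and 1 in V4, and 3 and 2 in Pico. For this list and the next, the background was 12.3% of all genes higher and 21.8% lower in TruSeq. It was 3.6% and 7.41% in V4, and 6.78% and 10.8% in Pico. The chemokine gene Ccl2 had 67, 58 and 41 counts against 8, 5 and 2 in TruSeq (log2 fold change 3.53 ± 0.47, adjusted p = 0.000406) and Plk3, a stress-responsive kinase gene, 2512, 2483 and 3301 against 430, 368 and 951 (2.41 ± 0.28, adjusted p = 0.000207). Plk2, a related kinase gene, had 31, 55 and 43 against 184, 173 and 109 (-1.80 ± 0.29, adjusted p = 0.00109), and these 3 were also called in V4 and Pico in the same direction. The Pico call of Ccl2 was lost without any 1 of I9579, I9583, U9575 and U9576 (up to 0.102), its V4 call without any 1 saline mouse (up to 0.0693) and the Pico call of Plk2 without any 1 mouse except U9576 (up to 0.193). The growth factor gene Vegfa was called lower in TruSeq and Pico (-0.44 ± 0.14 and -0.70 ± 0.13, adjusted p = 0.0341 and 0.00108). Its TruSeq call was lost with TMM factors (0.164), edgeR (0.2), DESeq2 (0.201) and without any 1 mouse except I9579 (0.0934 to 0.121). Ccl3 and Ier3 were the other genes higher in TruSeq. Of 7 transcripts known to be cut by Regnase-1, a list that holds Zc3h12a itself, 3 rose and 1 fell in TruSeq, 2 rose and 1 fell of 6 in V4, and 3 of 7 rose in Pico. Nfkbiz was the third riser in TruSeq and Pico, and Icos, at no more than 14 counts in any library, was the gene that fell. Lcn2, a siderophore-binding acute-phase protein, had 44980, 48283 and 55197 counts against 54, 65 and 91 in TruSeq, with log2 fold changes of 9.53 ± 0.18, 9.95 ± 0.34 and 9.03 ± 0.40 in TruSeq, V4 and Pico (adjusted p = 4.6e-09, 9.87e-08 and 1.62e-10).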

How the data were processed

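Per the study's methods, the authors aligned the reads to mm9 with GSNAP, removed ribosomal reads, and used their PORT pipeline to bring the libraries of a kit to equal depth by resampling and to count reads by gene. The deposited values are whole-number counts, sense-strand ones in the stranded kits and unstranded ones in V4, and each table was normalized separately. The run of the Pico table is not given in the sources used here. The study also describes a further round of TruSeq libraries from the same samples, and the run of the TruSeq table was not established here.

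Limma-voom (limma 3.58.1, R 4.3.3) was fitted kit by kit with library totals, to every gene not at 0 throughout, with Benjamini-Hochberg adjustment, and differences between kits with an interaction on 12 libraries. The kit-by-kit fit was tested on simulated data, and the interaction was not. Alternatives were TMM factors in voom, edgeR's quasi-likelihood test (4.0.16), DESeq2 (1.42.0), at least 10 counts in 3 libraries, 1 fit of 18 libraries, leaving out each mouse, and a block for the mouse. The mouse number pairs libraries across kits, since the RNA came from the same animal. Over 8960 genes, deviations from group means correlated at 0.0796 to 0.458 for the same mouse and -0.36 to -0.0327 for different mice. Deviations within a group balance out, so the negative values for different mice are partly built in. Coordinates are those of the GENCODE annotation of mm9, which the tables pad by 294, 298 and 250 bases in Pico, V4 and TruSeq. Python 3.11.15 with pandas 2.3.3 and matplotlib 3.10.9 made the summaries. Replicates within a kit are separate animals. The 1 fit of 18 libraries and the main interaction had no term for the mouse, so they treated libraries of the same mouse as independent.

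The 10 genes and all lists were chosen with earlier results of these data known. From each other list the text names up to 2 rising and 2 falling genes, those that changed most in TruSeq, among those called in at least 2 kits with the same sign in all. 1700056E22Rik and Gm17591 are named for their overlap, and genes that complete a small count were named after their values were seen. Antisense and intronic reads were not analysed here.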

Additional observations from a re-analysis of the deposited data

How the results depend on the processing

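Dusp6 and Zc3h12a kept their direction and their call in each kit in all 11 alternatives, as did Dusp1 in V4 and TruSeq and Zfp36 in TruSeq, and no value of the 10 genes that was called reversed. When mice were left out in turn, the number of the 10 genes called higher in Pico ranged from 1 to 3, and the number called lower from 1 to 2. In TruSeq the number called lower ranged from 1 to 2 without 1 mouse, and it was 2 with at least 10 counts in 3 libraries, where Dusp10 was added. Dusp1 and Zfp36 were the calls lost in Pico, and Zfp36l1 was added without mouse I9579. No difference in response between kits was called for any of the 10 genes in any alternative, including a replicate block for the mouse, which gave 0 in each pair of kits and changed no call of these genes (consensus correlation 0.188 in the Pico and TruSeq pair, 0.181 in the V4 and TruSeq pair and 0.0991 between the low-input kits). Within a kit no paired analysis was possible because the IL-1β and saline mice are different animals. Over all genes that block called 10 in the V4 and TruSeq pair and 0 in the others. Over all genes, 4698 were called in V4 and 4239 in TruSeq with 1 fit of 18 libraries, against 1986 and 6614 fitted kit by kit. Leaving out 1 mouse gave 908 to 2093 calls in V4, more than 1.5 times fewer without each mouse except U9576, and 1765 to 2603 in Pico against 3179, more than 1.5 times fewer without I9579, I9582 or I9583. The number of genes with the AU-rich heptamer was 4 in the longest region and over all isoforms. Of the alternatives for single values of the 10 genes, 285 kept their side of the threshold and their direction, 11 lost and 6 gained the call, and 23 changed the sign of a value that was not called. The cause of these changes was not tested. Dusp4 and Dusp5 had at most 19 counts in any library, and their 95% intervals in V4 were wider than those of the other 8 genes in that kit.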
